A study of Homo sapiens with 21 samples.

Results

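Glycolysis and glucose transport were followed through 33 genes in HepG2 cells, a human hepatocellular carcinoma line, after 24 h of caffeine. The genes were listed by name: glucose and lactate carriers, the hexokinases with their regulator GCKR, the enzymes from GPI to LDHB, the PFKFB enzymes that set the pace of phosphofructokinase, and kinases and subunits of the pyruvate dehydrogenase complex. All 33 were found by symbol among the 37637 features of the count table, and 31 of them were expressed highly enough to be tested, among 17951 features tested in all.

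Each of 7 groups held 3 libraries, which the labels call biological replicates. The groups were a control at 0 µM and caffeine at 0.01, 0.1, 1, 10, 100 and 1000 µM. All cells, control included, were washed and moved from serum medium to serum-free DMEM for the exposure, so each comparison is made in cells without serum. RNA was selected on poly(dT) beads before it was copied to cDNA. Where the labels do not say that replicates came from separate cultures, p-values measure the spread between these libraries only, which may be partly technical.

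Total counts ran from 23502519 to 44815552 per library. All 8 hepatocyte markers were present in every group, while the 5 fibroblast markers together stayed at or under 0.087 CPM. CPM are read counts scaled to a common library size, by plain library totals for these markers and by TMM for all other genes. The libraries fell into 3 sets by their mitochondrial mRNAs that cut across the doses. Set A (11 libraries, 9.95% to 14.2% mitochondrial counts) took in every library up to 0.1 µM, control included, and 2 of the 3 at 1 µM. Set B (7 libraries, 4.72% to 4.94%) took in the remaining 1 µM library (replicate 3), the whole 10 µM group, replicate 2 of the 100 µM group, and the 1000 µM replicates 1 and 2. The remaining 3 libraries, from 100 µM (replicates 1 and 3) and 1000 µM (replicate 3), made up set C, with 11.8% to 12.8%. No control library lies in set B or C, so each dose was compared with control in a fit of group means and again with the library set as a term. "Both fits" below refers to these. Set and dose are only partly separable: the 1 µM group alone spans sets A and B, so the values of that second fit for 10, 100 and 1000 µM against control rest on replicate 3 at 1 µM. The median SE of the 31 genes was 0.17 with the set term and 0.11 without it at 100 µM, and 0.16 and 0.11 at 1000 µM, so a call can be lost there at a similar log2 fold change.

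Glycolysis splits glucose into pyruvate in the cytosol and gains ATP and NADH on the way. Glucose enters through SLC2A carriers, is trapped by hexokinase, and passes the committing step at phosphofructokinase, which the product of the PFKFB enzymes activates. Pyruvate is either reduced to lactate, which leaves the cell through SLC16A carriers, or enters mitochondria, where PDK kinases restrain its oxidation. The liver runs the pathway both ways: hepatocytes take up and release glucose through SLC2A2, use GCKR to hold back glucokinase, and make the liver pyruvate kinase PKLR in response to carbohydrate. Hepatoma lines typically carry tumour isozymes such as HK2 and PKM beside these liver genes. Many genes of the pathway are known targets of the hypoxia-inducible factor HIF, which binds the core motifs ACGTG and GCGTG. The carbohydrate response factor binds paired E-boxes related to CACGTG.

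Most of the pathway's enzymes were lower at 1000 µM, while the carriers SLC2A1, SLC2A2 and SLC16A1 were higher. At 1000 µM, 24 of the 31 tested genes passed edgeR's quasi-likelihood test (Benjamini-Hochberg adjusted p under 0.05 over all features), 4 higher and 20 lower. Over all features 57.6% passed, 28.5% higher and 29.1% lower. The median log2 fold change was -0.45 for the 31 genes and -0.01 for all features. In the fit that includes the library set, 22 passed, 4 higher and 18 lower, against 38% of all features (18.2% higher, 19.8% lower), and 21 genes passed in the same direction in both fits, as did 34.3% of all features (16.7% higher, 17.6% lower). Marker levels also differed between doses, and their part in the changes of the 31 genes was not tested. The summed hepatocyte markers ran from 30580 to 36280 CPM in control. At 1000 µM their range was 25530 to 27880 CPM, under every control library, with ALB and AFP lower and APOB higher. The range was 35050 to 37690 CPM at 10 µM and 28610 to 32000 CPM at 100 µM, both overlapping control. The 5 summed leukocyte markers ran from 889 to 956 CPM in control and were above every control library at 10 µM (1312 to 1346 CPM), 100 µM (1554 to 1629 CPM) and 1000 µM (1282 to 1959 CPM). LYZ made up at least 99.7% of that sum at 1000 µM, where the pan-leukocyte marker PTPRC and the T-cell marker CD3E were both at 0. The summed level of the 33 genes was 13820 ± 935 CPM in control (SD, n = 3), 16155 ± 149 CPM at 100 µM and 9429 ± 1088 CPM at 1000 µM. The level at 100 µM was close to the 16063 ± 505 CPM at 0.01 µM. It was 15193 ± 152 CPM at 0.1 µM, 15123 ± 809 CPM at 1 µM and 13945 ± 476 CPM at 10 µM. In these bulk samples, less RNA per cell and fewer cells with the transcript cannot be told apart.

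At 100 µM the direction was mixed: 17 of the 31 genes passed, 12 higher and 5 lower, where 46.6% of all features passed (23.6% higher, 22.9% lower). In the fit with the set term 6 passed, 4 higher and 2 lower, beside 17.3% of all features (9.14% higher, 8.21% lower). The 5 genes that passed in both fits, where 15.6% of all features did, were SLC2A1, PFKFB3 and LDHA, which rose, and GCKR and PKLR, which fell. At 10 µM 5 genes passed, beside 14.8% of all features: 4 rose (PGK1, ENO1, SLC16A3 and PDHB; 7.27% of all features) and ALDOC fell (7.49% of all features). None of these 5 passed with the library set as a term, where 0.0279% of all features passed. At an unadjusted p under 0.05, a weaker threshold than that of this share, 1 gene of the 31 was found there. All 10 µM libraries lie in set B and all controls in set A.

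No gene of the 31 passed at 0.01, 0.1 or 1 µM by edgeR's quasi-likelihood test, where 0.0279%, 0% and 0.106% of all features did. Unadjusted p-values under 0.05 were found for 7, 3 and 5 genes in the same order. This is a weaker threshold than that of the shares of all features, so these counts cannot be read against those shares. DESeq2's Wald test called 2, 0 and 1, where it called 3.27%, 0.435% and 3.07% of all features it tested. In the fit with the set term 1 gene passed at 0.01 µM, beside 3.02% of all features (0.841% higher): PDHA1, a subunit of pyruvate dehydrogenase, was higher by a log2 value of 0.34 ± 0.06 (SE, adjusted p = 0.0201). None passed at 0.1 and 1 µM in that fit, where 0.0223% and 0.629% of all features passed. At the weaker threshold of an unadjusted p under 0.05 there were 7 and 8 genes, which cannot be read against these shares either. A joint test of the 6 doses called 29 of the 31 genes, beside 73.6% of all features, and left out HK2 and PFKM; with the library set as a term it called 26, beside 59.8%.

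**Figure D1:**
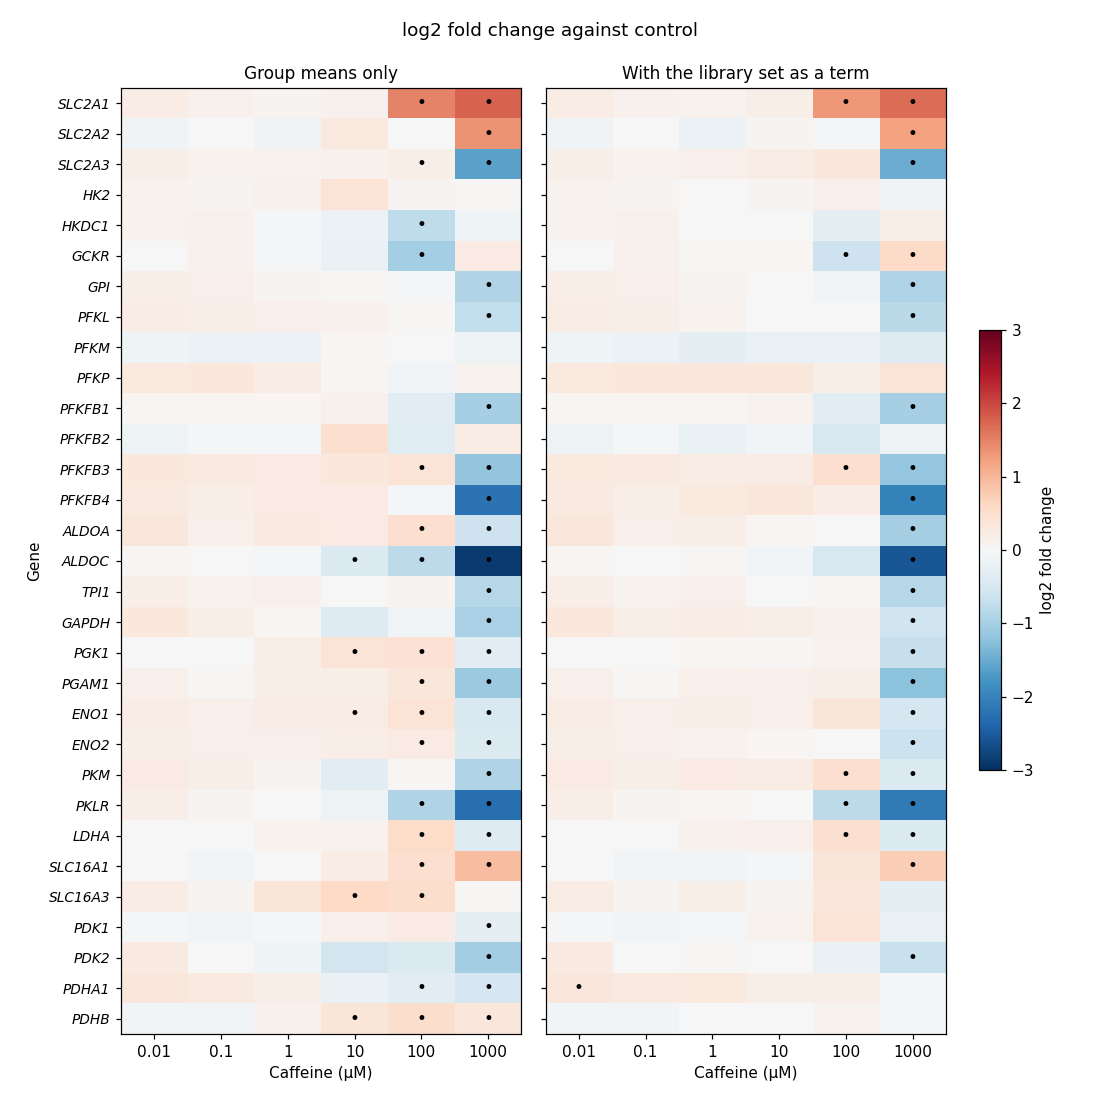
Log2 fold change against control for the 31 tested genes (rows) at 6 caffeine doses (columns), from group means only (left) and with a library set term (right); a dot marks an adjusted p under 0.05. The 1000 µM column is mostly blue with SLC2A1, SLC2A2 and SLC16A1 red in both panels, and most dots at 10 and 100 µM on the left are absent on the right.

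The promoters of 3 genes whose mRNA went different ways at 1000 µM are shown because the core motifs named above differ between them; they were chosen for that contrast after the motifs were seen. PGK1 and PFKL fell in both fits and SLC2A2 rose in both. Each sequence is the part of the 250 bases before the RefSeq start (GRCh38.p14) that no annotated untranslated region covers, 5′ to 3′ on the gene's own strand. Capitals mark ACGTG or GCGTG read on either strand, so that CACGT is ACGTG on the other strand.

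PGK1, chrX:78103998-78104173, + strand: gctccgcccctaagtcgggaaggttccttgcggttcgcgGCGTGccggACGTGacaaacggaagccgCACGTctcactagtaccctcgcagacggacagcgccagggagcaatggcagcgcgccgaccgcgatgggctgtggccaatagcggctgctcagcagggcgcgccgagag

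PFKL, chr21:44299803-44300050, + strand: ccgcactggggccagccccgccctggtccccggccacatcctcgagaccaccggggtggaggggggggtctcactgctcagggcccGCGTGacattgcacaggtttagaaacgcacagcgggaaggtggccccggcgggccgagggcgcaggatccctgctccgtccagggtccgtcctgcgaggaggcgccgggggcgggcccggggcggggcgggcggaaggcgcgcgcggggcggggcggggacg

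SLC2A2, chr3:171026751-171026970, - strand: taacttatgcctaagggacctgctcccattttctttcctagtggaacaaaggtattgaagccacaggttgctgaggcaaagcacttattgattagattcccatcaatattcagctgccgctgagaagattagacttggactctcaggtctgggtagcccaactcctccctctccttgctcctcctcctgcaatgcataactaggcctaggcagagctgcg

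The PGK1 stretch holds ACGTG at 2 places and GCGTG at 1, the PFKL stretch holds GCGTG at 1, and the SLC2A2 stretch holds neither. PGAM1 and PKM, which fell in both fits, have neither in their listed windows, and nor does SLC2A1, which rose. Across the 33 genes, 30 had at least 1 listed start, with 60 windows of 250 bases among them, some at alternative internal starts. ACGTG on either strand was found in 20 of these windows (33.3%), against 18.5% of 35116 windows of all genes. GCGTG was found in 17 (28.3%), against 32.2%, and CACGTG, which contains ACGTG, in 9 (15%), against 6.34%. Windows of 1 gene can overlap and are not independent. A match describes letters and does not show binding.

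The glucose carriers went in different directions at 1000 µM. SLC2A1 (GLUT1, the carrier of most proliferating cells) and SLC2A2 rose, and SLC2A3 (GLUT3, a high-affinity carrier) fell. In control, SLC2A3 was the higher of the carriers per length, at 75.9 CPM per kb of exon, with SLC2A1 at 42.2 and SLC2A2 at 13.25.

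SLC2A1 (chromosome 1, 42925375 to 42959176, minus strand; GENCODE 29 on GRCh38, as for all gene positions here) was at 225, 207 and 167 CPM in the control libraries, in order of replicate. It was at 226, 223 and 208 CPM at 10 µM. At 100 µM it was at 576, 525 and 584 CPM and at 1000 µM at 594, 569 and 894 CPM. Every library at the top doses was thus above every control library, and replicate 3 at 1000 µM, the library of set C, was the highest. The log2 fold change was 1.49 ± 0.13 (SE) at 100 µM (edgeR adjusted p = 4.66e-08) and 1.78 ± 0.13 at 1000 µM (edgeR adjusted p = 1.47e-09). In the fit with the set term these changes were 1.29 and 1.68, both past the threshold.

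SLC2A2 (GLUT2, the bidirectional carrier of hepatocytes and pancreatic beta cells; chromosome 3, 170996348 to 171026750, minus strand) was near its control level up to 100 µM. Control libraries had 40.2, 42.4 and 53.2 CPM, those at 10 µM 52.6, 54.5 and 59.6 CPM, and those at 100 µM 44.3, 47.3 and 45.1 CPM. At 1000 µM they had 122.97, 127.8 and 93.7 CPM. The groups overlapped at 10 and 100 µM and stood clear of each other at 1000 µM, where the log2 fold change was 1.34 ± 0.12 (edgeR adjusted p = 2.23e-08) and 1.21 with the library set as a term.

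SLC2A3 (chromosome 12, 7919230 to 7936275, minus strand) had 446, 455 and 501 CPM in control, 498, 509 and 519 CPM at 10 µM and 518, 546 and 528 CPM at 100 µM. At 1000 µM it had 142, 165 and 153 CPM, all far below any control library. It fell by 1.61 ± 0.07 on the log2 scale (edgeR adjusted p = 2.12e-12), and by 1.49 with the library set as a term. Its 4 named copies in the table, SLC2A14 among them, held 2.64% to 8.24% of its count, so reads of this family may be split between copies. At 100 µM its log2 fold change of 0.18 passed with an adjusted p of 0.0441, and not with the library set as a term (0.31, adjusted p = 0.113). That call was also lost with no filter (0.22, adjusted p = 0.114), with only control and 100 µM in the fit (0.18, adjusted p = 0.149), with the replicate block (0.18, adjusted p = 0.0511) and in 12 of 21 fits that each left out a library.

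Of the lactate carriers, SLC16A1 (MCT1) rose from 126 ± 13 CPM in control to 179 ± 10.7 at 100 µM and 240 ± 19.9 at 1000 µM (mean ± SD, n = 3). Its log2 fold change at 1000 µM was 0.93 ± 0.09 (edgeR adjusted p = 8.23e-08), and 0.74 in the fit with the set term. The rise at 100 µM, 0.51, did not pass in that fit (0.37, adjusted p = 0.104). SLC16A3 (MCT4, the export carrier of glycolytic cells) had 258 ± 40.3 CPM in control and 265 ± 28 CPM at 1000 µM, a log2 difference of 0.04 (adjusted p = 0.875) and of -0.29 with the set term (adjusted p = 0.267). At 100 µM it was at 301, 511 and 311 CPM, with the set B library far above the others: its log2 fold change of 0.54 passed (adjusted p = 0.0199), and without that library it was 0.24 (adjusted p = 0.200). The call was also lost with the set term (0.34, adjusted p = 0.307), with only control and 100 µM in the fit (0.53, adjusted p = 0.0802) and without control replicate 3 (0.43, adjusted p = 0.0849).

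**Figure D2:**
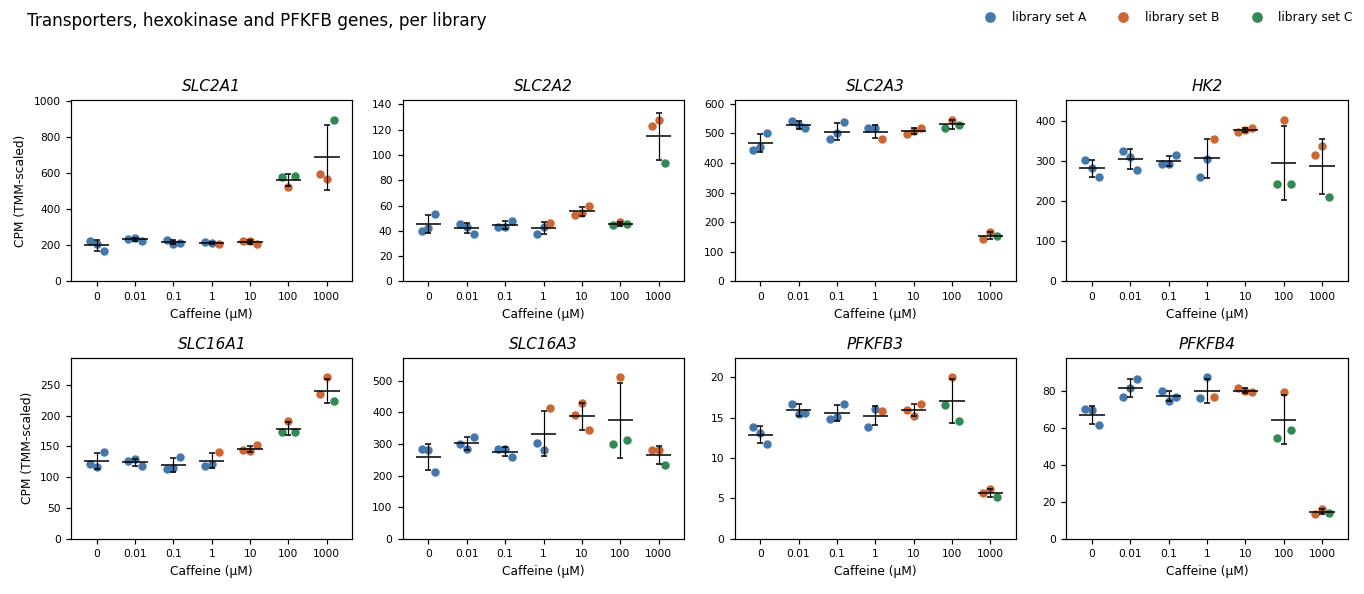
TMM-scaled CPM of 8 carrier, hexokinase and PFKFB genes in each library (points, coloured by library set) against caffeine dose in µM, with the mean (line) and SD (bars) of each group. SLC2A1 steps up between 10 and 100 µM, SLC2A2 steps up and SLC2A3, PFKFB3 and PFKFB4 step down between 100 and 1000 µM, and HK2 differs by library set within the 100 and 1000 µM groups.

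Neither tested hexokinase passed at 1000 µM. HK2, the hexokinase of muscle and many tumours (chromosome 2, 74833981 to 74893359, plus strand), had 302, 283 and 259 CPM in control and 371, 377 and 383 CPM at 10 µM. It had 243, 402 and 242 CPM at 100 µM and 315, 337 and 209 CPM at 1000 µM. Within both of the top groups the set B libraries were above the set C libraries, and both groups overlapped control. The log2 fold change at 1000 µM was 0.03 ± 0.18 (edgeR adjusted p = 0.903), and -0.10 with the library set as a term (adjusted p = 0.597). At 10 µM it was 0.42 (adjusted p = 0.114).

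HKDC1, a hexokinase described in liver tumours, was close to HK2 per length in control (49.4 against 46.4 CPM per kb). It had 210 ± 20.6 CPM in control, 125 ± 25.7 CPM at 100 µM and 193 ± 30.6 CPM at 1000 µM. The fall at 100 µM was 0.75 ± 0.12 on the log2 scale (edgeR adjusted p = 6.45e-05), but -0.29 with the set term (adjusted p = 0.137). HK1, the hexokinase of most tissues, was not tested: it had 0 to 9 counts per library and at most 0.293 CPM.

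GCKR, which holds glucokinase inactive in the liver nucleus, fell at 100 µM and not at 1000 µM. It was at 44 ± 4.67 CPM in control, 21.7 ± 0.766 CPM at 100 µM and 52.3 ± 8.71 CPM at 1000 µM. The log2 fold change at 100 µM was -1.02 ± 0.11 (edgeR adjusted p = 7.84e-07) and -0.62 with the set term (adjusted p = 0.0230). At 1000 µM it was 0.25 (adjusted p = 0.0611), and with the set term 0.58 (adjusted p = 0.0128). The value at 1000 µM also passed with the replicate block (0.25, adjusted p = 0.0339) and without control replicate 1 (0.32, adjusted p = 0.0377). Without replicate 3 at 1000 µM it passed (0.36, adjusted p = 0.00802), and without replicate 1 there it did not (0.12, adjusted p = 0.390). The step from 100 to 1000 µM, 1.27 ± 0.11, passed in both fits.

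The middle of the pathway was lower at 1000 µM. GPI, which turns glucose phosphate into fructose phosphate, went from 301 ± 52.4 CPM in control to 162 ± 15.9 CPM, a log2 fall of -0.89 ± 0.10 (edgeR adjusted p = 3.54e-07). PFKL, the liver phosphofructokinase, went from 127 ± 28.7 to 76.1 ± 7.98 CPM, or -0.75 ± 0.14 (adjusted p = 0.000147). Both passed with the set term, at -0.92 and -0.82. The other subunits did not pass in either fit. PFKP, the platelet subunit, had 16.9 ± 1.56 CPM in control and 18.2 ± 2.32 CPM at 1000 µM. PFKM, the muscle subunit, stayed between 1.14 and 2.11 CPM in all 21 libraries, where its counts of 32 to 82 limit what could be detected.

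The PFKFB enzymes make and remove the fructose bisphosphate that activates phosphofructokinase, and 3 of the 4 fell. PFKFB4 (chromosome 3, 48517684 to 48562015, minus strand) had 70.4, 70.0 and 61.7 CPM in control, 81.7, 80.1 and 79.5 CPM at 10 µM and 54.9, 79.8 and 59.0 CPM at 100 µM. At 1000 µM it had 13.5, 16.2 and 14.0 CPM, far under every other library. It fell by 2.21 ± 0.12 on the log2 scale (edgeR adjusted p = 1.52e-11), and the value was -2.02 with the set term.

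PFKFB3, the form with the strongest kinase activity (chromosome 10, 6144934 to 6254644, plus strand), rose at 100 µM and fell at 1000 µM. Its control libraries had 13.8, 13.1 and 11.7 CPM and those at 10 µM 15.9, 15.2 and 16.7 CPM. At 100 µM they had 16.6, 20.0 and 14.6 CPM, all above control, and at 1000 µM 5.66, 6.17 and 5.22 CPM, all below it. Above every control library were also those at 0.01 µM (15.4 to 16.7 CPM) and 0.1 µM (14.8 to 16.7 CPM). The same held at 1 µM (13.9 to 16.0 CPM) and at 10 µM. PFKFB3 did not pass at these lower doses by edgeR's test. The log2 fold change was 0.41 ± 0.11 at 100 µM (edgeR adjusted p = 0.00477) and -1.18 ± 0.11 at 1000 µM (adjusted p = 4.88e-08). With the set term the values were 0.51 (adjusted p = 0.0486) and -1.17 (adjusted p = 1.91e-05).

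PFKFB1, the liver form (chromosome X, 54932961 to 54998534, minus strand), was scarce. It had 2.63, 2.67 and 2.57 CPM in control, 2.74, 2.75 and 3.08 CPM at 10 µM, 1.76, 2.09 and 2.43 CPM at 100 µM and 1.30, 1.38 and 1.24 CPM at 1000 µM. Its libraries at 1000 µM were all below control. The fall was -1.001 ± 0.15 on the log2 scale (edgeR adjusted p = 1.1e-05), and -1.0003 with the set term. PFKFB2, the heart form, had 50 ± 2.11 CPM in control and 57.8 ± 17.6 CPM at 1000 µM, and did not pass at either of the top doses in either fit. It did pass as lower at 100 µM without replicate 2 of that dose (-0.57, edgeR adjusted p = 0.0406). Without replicate 3 at 1000 µM it passed as higher at that dose (0.44, edgeR adjusted p = 0.0353).

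Below phosphofructokinase, every tested member from aldolase to lactate dehydrogenase fell at 1000 µM in both fits, where 17.6% of all features were lower. These are ALDOA, ALDOC, TPI1, GAPDH, PGK1, PGAM1, ENO1, ENO2, PKM, PKLR and LDHA. The falls of the fit of group means ran from -0.34 for PGK1 to -2.87 for ALDOC. Pseudogenes named after these enzymes took at most 0.261% of the parent's count in any library.

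ALDOC, the brain aldolase (chromosome 17, 28573115 to 28577264, minus strand), had the largest fall of the 31 genes in the fit of group means. Its control libraries had 155, 157 and 124 CPM. Those at 10 µM had 113, 113 and 102 CPM, those at 100 µM 85.9, 89.6 and 79.2 CPM, and those at 1000 µM 17.3, 20.5 and 22.1 CPM. The last 3 groups did not overlap each other or control. The log2 fold changes were -0.41 ± 0.10 at 10 µM (edgeR adjusted p = 0.0148), -0.77 ± 0.10 at 100 µM (adjusted p = 7.67e-06) and -2.87 ± 0.11 at 1000 µM (adjusted p = 2.63e-13). With the set term the first 2 did not pass (-0.09, adjusted p = 1, and -0.48, adjusted p = 0.0625), and the last was -2.56.

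ALDOA, the aldolase of muscle and most tumours, went from 976 ± 189 CPM in control to 1395 ± 112 CPM at 100 µM and 638 ± 216 CPM at 1000 µM. The last group held 511 and 514 CPM in its set B libraries and 887 CPM in its set C library, which lay within the control range. The fall at 1000 µM was -0.61 ± 0.17 (edgeR adjusted p = 0.00452), -1.01 with the set term and -0.93 without the set C library. With only control and 1000 µM in the fit it did not pass (adjusted p = 0.0703). The rise at 100 µM, 0.52, was 0.0086 with the set term (adjusted p = 0.995). It did not pass without control replicate 3 (0.38, adjusted p = 0.0906) or without replicate 1 at 100 µM (0.46, adjusted p = 0.0662).

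TPI1, which interconverts the triose phosphates, fell from 597 ± 52.8 to 331 ± 19.1 CPM at 1000 µM (-0.85 ± 0.08, edgeR adjusted p = 2.34e-08). PGK1, the first ATP-making step, rose from 379 ± 38 to 508 ± 39.3 CPM at 100 µM (0.42, adjusted p = 0.00142; 0.10 and adjusted p = 0.670 with the set term) and went to 300 ± 3.79 CPM at 1000 µM (-0.34 ± 0.10, adjusted p = 0.00576, and -0.69 with the set term).

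GAPDH, which makes the NADH of the pathway and is often used as a reference gene (chromosome 12, 6533927 to 6538374, plus strand), was the most abundant member per length. It had 3920.4, 4248 and 3386 CPM in control and 3107, 2966 and 2777 CPM at 10 µM. At 100 µM it had 3948, 3052 and 3878 CPM, and at 1000 µM 1618, 1635 and 2653 CPM. All 1000 µM libraries lay under all controls, with the set C library nearest to them. At 1000 µM GAPDH had a log2 fold change of -0.97 ± 0.18 (edgeR adjusted p = 0.000115), and -0.60 with the set term (adjusted p = 0.00735).

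PGAM1, the phosphoglycerate mutase (chromosome 10, 97426160 to 97433441, plus strand), had tight groups up to 100 µM and a wider one at 1000 µM. It was at 520, 541 and 524 CPM in control, 609.6, 616 and 579 CPM at 10 µM, 667, 657 and 684 CPM at 100 µM and 215, 231 and 286 CPM at 1000 µM. The libraries at 0.01 µM (574 to 596 CPM), 1 µM (581 to 608 CPM), 10 µM and 100 µM were all above control. The 1000 µM libraries were all below it. PGAM1 did not pass by edgeR's test at 0.01, 1 or 10 µM. On the log2 scale PGAM1 changed by 0.34 at 100 µM (edgeR adjusted p = 0.00202; 0.17 and adjusted p = 0.393 with the set term) and -1.12 ± 0.08 at 1000 µM (adjusted p = 1.1e-09; -1.23 with the set term).

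Both enolases fell at 1000 µM. ENO1, the common form, had 2484 ± 129 CPM in control, 3275 ± 299 CPM at 100 µM and 1821 ± 87.2 CPM at 1000 µM. Its changes were 0.40 ± 0.07 (edgeR adjusted p = 0.000232; 0.37 and adjusted p = 0.0678 with the set term) and -0.45 ± 0.07 (adjusted p = 3.89e-05). ENO2, the neuronal form, had 62.2 ± 6.72, 73.9 ± 3.2 and 46.1 ± 4.99 CPM in the same groups. Its log2 fold change was -0.44 ± 0.09 at 1000 µM (adjusted p = 0.000447). At 100 µM it was 0.25 (adjusted p = 0.0318), but -0.0055 with the set term (adjusted p = 0.995). That call was also lost with only control and 100 µM in the fit (0.25, adjusted p = 0.107), without control replicate 3 (0.18, adjusted p = 0.124), and without replicate 1 (0.21, adjusted p = 0.111) or 3 (0.25, adjusted p = 0.0624) at 100 µM.

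**Figure D3:**
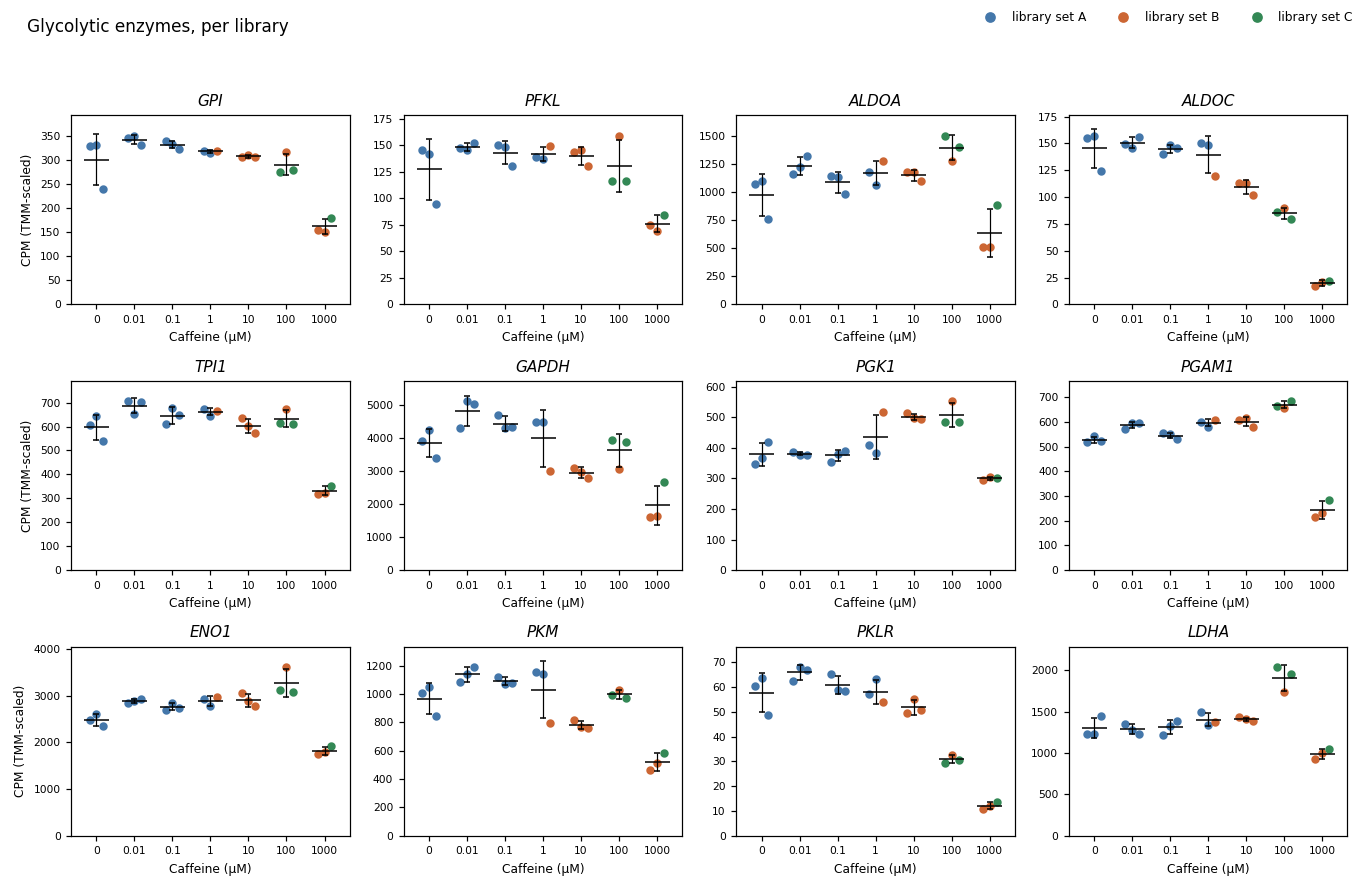
TMM-scaled CPM of 12 enzymes from GPI to LDHA in each library (points, coloured by library set) against caffeine dose in µM, with the mean (line) and SD (bars) of each group. ALDOC and PKLR are lower at 100 µM and lower again at 1000 µM, the other enzymes are lowest at 1000 µM, and for ALDOA and GAPDH the set C library at 1000 µM lies above the set B libraries.

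The pyruvate kinases both fell at 1000 µM, the liver form more. PKLR (chromosome 1, 155289293 to 155301438, minus strand) had 60.6, 63.8 and 48.8 CPM in control and 49.6, 55.1 and 50.7 CPM at 10 µM. It had 29.4, 32.6 and 30.7 CPM at 100 µM and 10.8, 11.9 and 13.6 CPM at 1000 µM. Control, 100 µM and 1000 µM were 3 separate ranges. PKLR changed by -0.90 ± 0.10 on the log2 scale at 100 µM (edgeR adjusted p = 1.07e-06) and -2.26 ± 0.11 at 1000 µM (adjusted p = 4.23e-12). With the set term it was -0.78 (adjusted p = 0.00657) and -2.12 (adjusted p = 3.22e-08).

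PKM, the pyruvate kinase of muscle and tumours (chromosome 15, 72199029 to 72231822, minus strand), had 1008, 1050.3 and 846 CPM in control, 814, 771 and 758 CPM at 10 µM and 993, 1032 and 972 CPM at 100 µM. At 1000 µM it had 465, 513 and 587 CPM, under all other libraries. It fell by 0.89 ± 0.12 on the log2 scale (edgeR adjusted p = 2.6e-06), and by 0.40 with the set term (adjusted p = 0.0381). At 100 µM the log2 difference was 0.05 (adjusted p = 0.778) and with the set term 0.51 (adjusted p = 0.0310). The counts are per gene, so the splice forms of PKM were not analysed here.

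LDHA, which reduces pyruvate to lactate (chromosome 11, 18394388 to 18408425, plus strand), rose and then fell. It had 1227, 1232 and 1445 CPM in control, 1429, 1409.6 and 1392 CPM at 10 µM, 2040.2, 1733 and 1954 CPM at 100 µM and 926, 994 and 1051 CPM at 1000 µM. All 100 µM libraries were above, and all 1000 µM libraries below, every control. Its log2 fold change was 0.55 ± 0.08 (edgeR adjusted p = 2.89e-05) and then -0.39 ± 0.08 (adjusted p = 0.000541). With the set term it was 0.48 (adjusted p = 0.0246) and -0.41 (adjusted p = 0.0203). LDHB, the other main lactate dehydrogenase subunit, had 2 counts over the 21 libraries together and was not tested.

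At the gate to the mitochondria, PDK2, a kinase that switches pyruvate dehydrogenase off (chromosome 17, 50094737 to 50112152, plus strand), fell. It had 39.5, 41.3 and 30.0 CPM in control, 25.2, 25.0 and 25.5 CPM at 10 µM, 30.2, 24.7 and 26.7 CPM at 100 µM and 15.2, 14.2 and 24.8 CPM at 1000 µM. The set C library at 1000 µM stood apart from the set B pair but still below control. PDK2 thus had a log2 fold change of -1.04 ± 0.19 at 1000 µM (edgeR adjusted p = 0.000115), and -0.68 with the set term (adjusted p = 0.0288).

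PDK1, the hypoxia-induced kinase of the family, went from 50.6 ± 7.59 to 41.6 ± 6.33 CPM. Its fall of -0.28 passed narrowly (edgeR adjusted p = 0.0359). It did not pass with the set term (-0.23, adjusted p = 0.267), with no filter (-0.27, adjusted p = 0.0810), with only control and 1000 µM in the fit (-0.28, adjusted p = 0.164), without control replicate 3 (-0.15, adjusted p = 0.232) or without replicate 3 at 1000 µM (-0.17, adjusted p = 0.179). Neither subunit of the complex passed against control at 1000 µM in both fits. PDHA1 fell from 118 ± 8.21 to 83.5 ± 6.86 CPM (-0.50, adjusted p = 0.000248; -0.06 and adjusted p = 0.713 with the set term). Between 100 and 1000 µM PDHA1 was lower by -0.28 inside set B and -0.23 inside set C, and it fell from 10 to 1000 µM within set B (-0.27 ± 0.05, adjusted p = 0.000529). PDHB rose from 51.9 ± 2.89 to 65.7 ± 0.907 CPM (0.34, adjusted p = 0.00473; -0.05 and adjusted p = 0.817 with the set term).

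The step between the top doses uses no control library, and both doses have libraries in sets B and C. From 100 to 1000 µM, 25 of the 31 genes passed, 5 higher and 20 lower, beside 44% of all features (21.8% higher, 22.3% lower). All 25 passed in the same direction with the library set as a term (41.2% of all features did so in both), where 28 passed, 6 higher and 22 lower, beside 46.3% (22.4% higher, 23.9% lower). The falls of SLC2A3 (-1.79 ± 0.07, edgeR adjusted p = 9.42e-13), PFKFB4 (-2.15 ± 0.12, adjusted p = 4.59e-11) and ALDOC (-2.09 ± 0.11, adjusted p = 2.84e-11) were the largest. SLC2A2 (1.33 ± 0.12, adjusted p = 5.91e-08) and GCKR (adjusted p = 4.06e-08) rose most. SLC2A1 did not pass between these doses (0.29, adjusted p = 0.0807), and did with the set term (0.39, adjusted p = 0.00351). Taken inside set B (2 libraries against 1) and inside set C (1 against 2), 24 genes were lower at 1000 µM in both, 6 were higher in both, and PFKP differed in sign.

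Within set B alone, the 2 libraries at 1000 µM were compared with the 3 at 10 µM in a fit of their own. Of the 31 genes 27 passed, 5 higher and 22 lower, where 69.1% of the 17090 features tested there passed (34.1% higher, 35% lower). ALDOA fell by 1.19 ± 0.06 on the log2 scale there, GAPDH by 0.88 ± 0.06, PKM by 0.70 ± 0.06 and PDK2 by 0.80 ± 0.07 (edgeR adjusted p = 2.26e-09, 5.18e-08, 4.3e-07 and 6.05e-07). HK2 fell by 0.23 (adjusted p = 0.00155) and SLC16A3 by 0.49 (adjusted p = 0.000915), neither of which passed against control. PFKM, PFKP, PFKFB2 and PDHB did not pass.

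**Figure D4:**
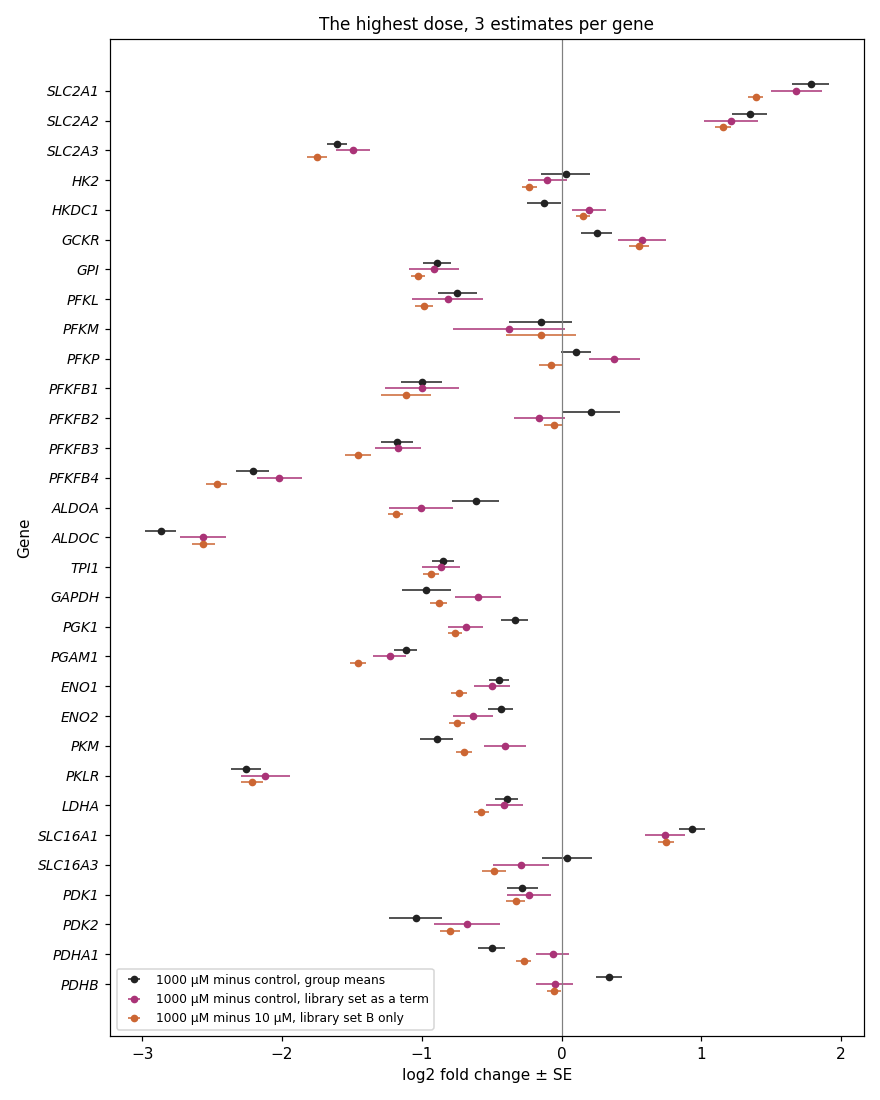
Log2 fold change ± SE for the 31 tested genes under 3 comparisons: 1000 µM minus control from group means (black), the same with the library set as a term (magenta), and 1000 µM minus 10 µM within library set B (orange). The 3 values lie on 1 side of 0 for the carriers SLC2A1, SLC2A2 and SLC16A1 and for the enzymes from ALDOA to LDHA, and on both sides for HK2, HKDC1, PFKP, PFKFB2, SLC16A3 and PDHB.

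The balance within families was followed as the log2 ratio of reads per kb in each library, as a description; the ratios themselves were not tested. SLC2A3 to SLC2A1 stood at 0.85 ± 0.31 in control, -0.46 ± 0.12 at 100 µM and -2.51 ± 0.38 at 1000 µM (mean ± SD, n = 3), so that SLC2A1 became the more abundant carrier at the top doses. PFKFB4 to PFKFB2 went from 1.17 ± 0.13 to -1.20 ± 0.47 at 1000 µM. SLC16A1 to SLC16A3 went from -0.27 ± 0.38 to 0.62 ± 0.11.

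ALDOC to ALDOA went from -2.32 ± 0.11 to -3.62 ± 0.17 at 100 µM and -4.54 ± 0.34 at 1000 µM. PKLR to PKM went from -2.64 ± 0.04 to -3.58 ± 0.05 and -3.991 ± 0.0019 in the same groups, with no overlap between them. PFKP to PFKL rose from -2.01 ± 0.22 to -1.18 ± 0.04 at 1000 µM. ENO2 to ENO1 was -5.02 ± 0.10 in control, -5.17 ± 0.18 at 100 µM and -5.01 ± 0.09 at 1000 µM, and these ranges overlapped. PDK2 to PDK1 was at 0.98 ± 0.46 in control and 0.20 ± 0.67 at 1000 µM, where the ranges overlapped.

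**Figure D5:**
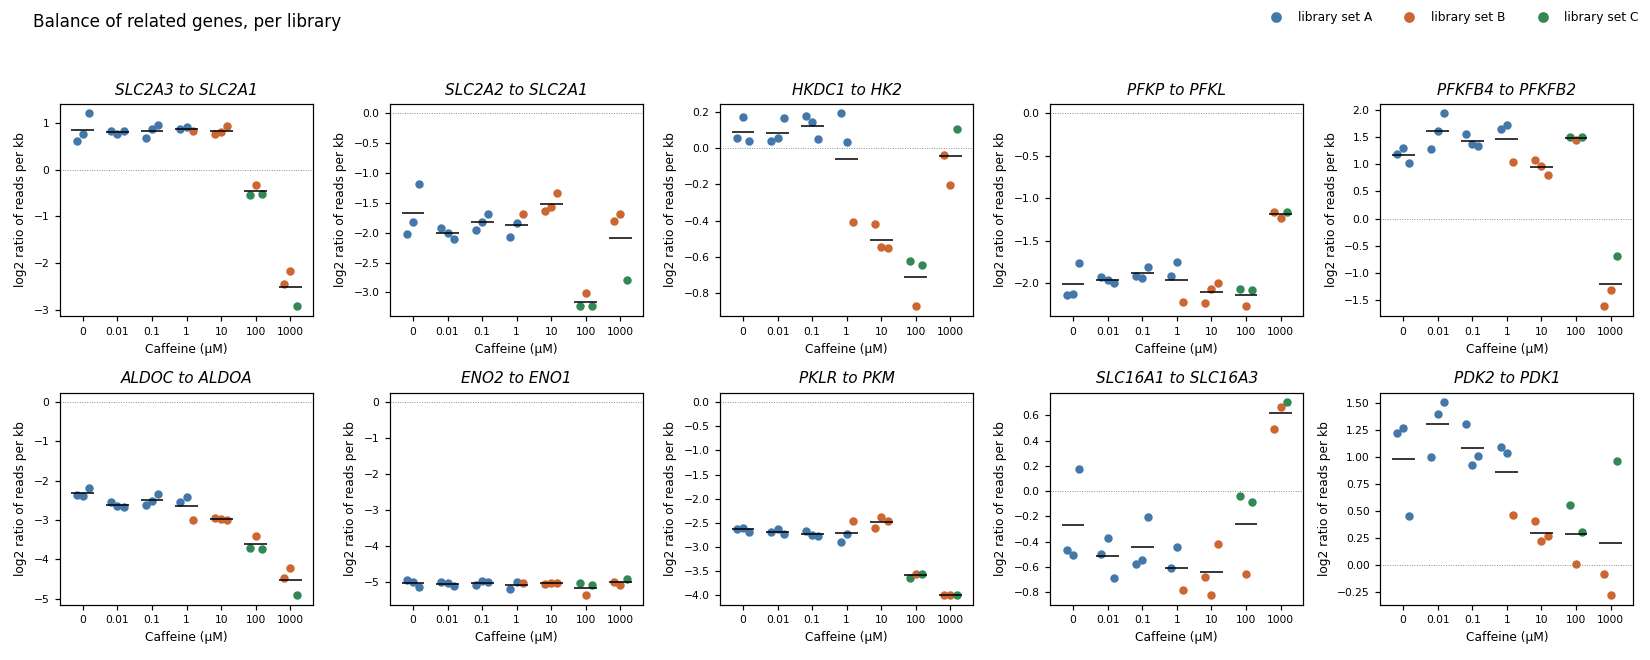
Log2 ratio of reads per kb for 10 pairs of related genes in each library (points, coloured by library set) against caffeine dose in µM, with the group mean as a line. The SLC2A3 to SLC2A1 and PKLR to PKM ratios step down at 100 µM and again at 1000 µM, the PFKFB4 to PFKFB2 ratio crosses 0 at 1000 µM, and the ENO2 to ENO1 ratio lies between -5.37 and -4.91 in all libraries, with its lowest value at 100 µM.

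Of 32 further genes of glycolysis and sugar transport, 19 were tested and 13 passed at 1000 µM in the fit of group means, 1 higher and 12 lower (median log2 fold change -0.61). In both fits 1 was higher and 11 were lower. The shares to read these lists against are those of all features at 1000 µM, 28.5% higher and 29.1% lower in the fit of group means and 16.7% and 17.6% in both fits, with a median of -0.01. PGAM2, the muscle mutase, passed in both fits from 0.289 ± 0.0913 to 0.0236 ± 0.0409 CPM, too few counts for a fold to be given. Among genes with a mean of at least 1 CPM, the largest falls were those of SLC2A6, a lysosomal hexose carrier, from 31.2 ± 7.47 to 5.42 ± 0.866 CPM (-2.54 ± 0.16, edgeR adjusted p = 1.75e-10), and LDHD, the dehydrogenase of D-lactate (-2.46 ± 0.15, adjusted p = 6.8e-11). SLC5A2, the sodium-coupled carrier of kidney (-1.91), and BPGM, which makes bisphosphoglycerate (-1.34), followed.

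Of 11 further genes of pyruvate entry to mitochondria, 10 were tested and 8 passed at 1000 µM, 2 higher and 6 lower (median -0.37); in both fits 1 was higher and 5 were lower. MPC1 and MPC2, the subunits of the mitochondrial pyruvate carrier, fell by 1.23 ± 0.10 and 0.62 ± 0.12 on the log2 scale (edgeR adjusted p = 3.84e-09 and 0.000241). The phosphatase PDP2 (-0.73) and the kinase PDK3 (-0.64), which act against each other on pyruvate dehydrogenase, both fell. Of 8 enzymes of the gluconeogenic bypass, 7 were tested and 5 passed, 3 higher and 2 lower (median 0.48), and 3 were higher and 1 lower in both fits. G6PC1, which frees glucose from glucose phosphate, went from 0.487 ± 0.115 to 8.52 ± 0.861 CPM (4.14 ± 0.22, adjusted p = 1.55e-11). PCK1 (1.33) and PCK2 (1.06), the enzymes that turn oxaloacetate into phosphoenolpyruvate, rose, and G6PC3, the ubiquitous glucose phosphatase, fell (-0.64).

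The genes whose level followed ALDOC most closely over the 21 libraries, among 10836 features outside the 33 genes with a mean of at least 5 CPM, were NSDHL (Pearson r = 0.994), BTG2 (0.991), MICB (0.990), SLC16A13 (0.988) and FSCN1 (0.988). NSDHL acts in cholesterol synthesis, and SLC16A13 is a carrier related to SLC16A1. These libraries share groups and sets, and the r values describe likeness only.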

How the data were processed

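The deposited table holds raw read counts per feature for 21 libraries of HepG2 cells, as whole numbers, per the file headers and values. The submitters' processing notes name HISAT2, DESeq2 and GRCh38 without roles or versions; the counting tool, annotation and use of strand are not given in the sources used here, so reads of overlapping genes or near-identical copies may be split. A further 21 per-sample columns were not used. Symbols and positions came from GENCODE 29; 66.5% of the 32937 Ensembl identifiers carry the same version there, as do 12 of the 33 genes.

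Low features were removed by filterByExpr with the dose groups, which left 17951. TMM scaling and the robust quasi-likelihood F-test of edgeR 4.0.16, run in R 4.3.3, were applied to the 21 libraries in a single model with a mean for each group. Benjamini-Hochberg adjustment of the 2-sided p-values ran over all features tested, and a call needs an adjusted p under 0.05. The SE of a log2 fold change is its size over the square root of F. The fits were tested on simulated counts. CPM used TMM-scaled totals (plain totals for cell type markers), so precision follows totals of 23502519 to 44815552 counts. Counting error at these totals holds only where reads are independent molecules, and is understated where they are not.

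Library sets were clusters (average linkage) of centred log2 levels of 13 mitochondrial mRNAs, with 3 clusters at a mean silhouette of 0.571 against 0.525 for 2. No pair of replicates agreed within counting noise, so none was merged. Per-library values are given for genes that passed at 1000 µM in both fits with a log2 fold change of at least 1 in size, and for SLC2A1, HK2, GAPDH, PKM and LDHA; of each further list, up to 4 genes that passed in both fits are named. The 33 genes and the lists were chosen with earlier results of these data known. Promoter windows came from RefSeq (GRCh38.p14). Alternatives were the set term, DESeq2 size factors, DESeq2 1.42.0 with its Wald test, a filter at a mean of 5 CPM or none, the replicate number as a block, only control and 1 dose, and each library left out.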

Additional observations from a re-analysis of the deposited data

How the results depend on the processing

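Over 1732 values of single genes at 100 and 1000 µM under alternatives, 1631 kept their direction and side of the threshold. Of the rest, 45 lost the call, 18 gained it and 38 changed sign, and none of the 38 passed the threshold under the alternative. Most alternatives left out a single library, often neither a control nor one of the dose in question, so little could change there. The set term by itself lost 12 calls, gained 2 and changed 12 signs. The counts of genes called at 1000 µM ranged from 23 to 25 with each library left out, those at 100 µM from 14 to 19 and those at 1000 against 100 µM from 23 to 26.

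Adding the library set moved the count called from 0 to 1 at 0.01 µM, from 5 to 0 at 10 µM and from 17 to 6 at 100 µM. DESeq2's Wald test called 2 genes at 0.01 µM and 1 at 1 µM. At 10 µM, no filter left 3 calls (4.98% of all features), a fit of control and 10 µM alone gave 10 (22%), and leaving out each library gave 1 to 10 (1 without control replicate 1; 2 without control replicate 2 or any 10 µM library; 8 without replicate 2 at 100 µM; 10 without replicate 3 at 1000 µM). The cause of these changes was not tested.

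With the set term, the log2 fold change at 100 µM changed sign to -0.030 for SLC2A2, -0.0071 for PFKL, 0.19 for PFKP, 0.22 for PFKFB4, 0.14 for GAPDH, -0.0055 for ENO2 and 0.19 for PDHA1. At 1000 µM it changed to -0.10 for HK2, 0.20 for HKDC1, -0.16 for PFKFB2, -0.29 for SLC16A3 and -0.048 for PDHB. PFKM at 100 µM was 0.0010 with DESeq2 size factors, 0.034 with no filter and 0.0037 with the replicate block. Leaving out each library, values at 100 µM ran from -0.069 to 0.16 for SLC2A2, -0.22 to 0.20 for HK2, -0.17 to 0.026 for GPI, -0.13 to 0.14 for PFKL, -0.13 to 0.10 for PFKM, -0.24 to 0.046 for PFKFB4, -0.16 to 0.021 for GAPDH and -0.027 to 0.11 for PKM. At 1000 µM they ran from -0.10 to 0.21 for HK2 and -0.088 to 0.12 for SLC16A3, and the change of the ENO2 to ENO1 ratio ran from -0.042 to 0.057.

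The replicate numbers do not pair the libraries: 2 of 21 pairs of groups had every same-number correlation over 0.1, and 3 of 21 libraries correlated best with their own number. With the replicate number as a block, 4 genes were called at 10 µM (12.7% of all features in that fit), 16 at 100 µM (45.1%), 25 at 1000 µM (56.6%), 29 in the joint test (71.7%), 25 at 1000 against 100 µM (42.7%) and 27 within set B (69.8%). The median of all features stayed between -0.03 and 0.02 under every setting tried, the set term included. PFKFB1 and PFKM, the scarcest tested genes, have the fewest counts.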

Other observations

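Genes around the pathway were described from lists at 1000 µM, counted in both fits of edgeR's quasi-likelihood test, in which 16.7% of all features were higher and 17.6% lower. Of 15 glycogen genes 14 were tested, and 1 was higher and 3 lower in both fits (median log2 fold change 0.01 in the fit of group means, against -0.01 for all features). PPP1R3C, which brings phosphatase to glycogen, went from 14.8 ± 2.0 CPM in control to 3.66 ± 0.73 CPM (SD, n = 3), a log2 change of -2.01 ± 0.13 (SE, adjusted p = 1.79e-10). GYS1, the glycogen synthase of muscle and most tissues, went from 49.9 ± 8.3 to 13 ± 1.72 CPM (-1.95 ± 0.15, adjusted p = 1.52e-09). EPM2A, the glycogen phosphatase laforin, fell (-1.12), and GYG1, the primer protein of glycogen, rose (1.35). Of 9 genes of the pentose phosphate branch 8 were tested, and RPE alone, the ribulose phosphate epimerase, passed in both fits (0.61 ± 0.08, adjusted p = 3.12e-06).

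Of 20 HIF targets outside glycolysis 19 were tested, and 3 were higher and 8 lower in both fits (median -0.50). CA9, a carbonic anhydrase, had 7.67 ± 0.715 CPM in control, 14 ± 2.15 CPM at 100 µM and 2.15 ± 0.540 CPM at 1000 µM (-1.85 ± 0.19 at 1000 µM, adjusted p = 8.21e-08). EPO, the hormone of red cell formation, had 2.97 ± 0.056, 7.77 ± 0.659 and 1.38 ± 0.457 CPM in the same groups (-1.12). ANKRD37 (-1.16) and P4HA2, a collagen prolyl hydroxylase (-0.96), also fell at 1000 µM. The 3 that rose, named here after their values were seen, were LOX, a collagen cross-linking oxidase (0.74; 1.04 with the set term), NDRG1 (0.61; 0.94) and VEGFA, the vascular growth factor (0.50; 0.72). Of the HIF subunits and oxygen sensors 8 of 10 were tested, and 3 were higher and 1 lower in both fits (median 0.25). HIF1AN, which hydroxylates HIF and dampens it (1.03), VHL, which marks it for degradation (0.89), and EPAS1, a HIF alpha subunit (0.44), rose, and the prolyl hydroxylase EGLN2 fell (-0.44).

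Of 14 genes of carbohydrate response and glucose sensing 13 were tested, and 7 were higher and 2 lower in both fits (median 0.45). OGT, which attaches N-acetylglucosamine to proteins, went from 112 ± 11.8 to 444 ± 99.1 CPM (1.99 ± 0.14, adjusted p = 7.19e-10). PRKAA2 (1.49) and PRKAA1 (1.09), the catalytic subunits of the energy sensor AMPK, rose. Of its other subunits, named here after their values were seen, PRKAB2 rose (0.48), PRKAG1 fell (-1.04; -0.68 with the set term), and PRKAB1 passed as lower in the fit of group means alone (-0.40; -0.29). ARRDC4, a glucose-induced arrestin, had 53.9 ± 4.87 CPM in control, 11.3 ± 0.173 CPM at 100 µM and 25.3 ± 0.490 CPM at 1000 µM (-1.09 at 1000 µM). TXNIP, a related arrestin that glucose also induces, had 54.3 ± 2.11, 33.8 ± 2.15 and 74.1 ± 5.41 CPM in the same groups, and rose at 1000 µM (0.45; 0.60 with the set term); it too was named after its values were seen.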
